A study of Homo sapiens with 36 samples.

Results

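The MHC class I antigen presentation genes HLA-B, HLA-C, HLA-E, HLA-F, B2M, TAP1, TAP2, PSMB8 and PSMB9 were examined in chromatin immunoprecipitation sequencing (ChIP-seq) peak lists of A549 and B2B cells. They were 9 of 20033 protein-coding genes, and a peak was assigned to a gene when any base of it lay within 3 kb of any GENCODE start site of that gene in hg38. A549 is a cell line from a lung adenocarcinoma, and B2B (BEAS-2B) is a line from non-cancerous human bronchial epithelium that was immortalised with viral genes. The labels name no treatment, and each line stands for 1 culture model and not for a set of donors. Each line had lists for RNA polymerase II (pol II), H3K4me3, H3K27ac, the Mediator subunit Med1 and the AP-1 subunits JunB, Jun and JunD, and B2B also had lists for the insulator protein CTCF and the cohesin subunit Rad21. Each of the 16 lists came from 2 replicates that the authors merged before calling peaks, so no value below has a replicate error and no difference was tested.

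MHC class I molecules carry peptides from inside the cell to its surface, where CD8 T cells and natural killer cells inspect them. A polymorphic heavy chain (HLA-B or HLA-C) or a conserved one (HLA-E or HLA-F) pairs with beta-2-microglobulin, the product of B2M. The immunoproteasome subunits PSMB8 and PSMB9 cut proteins into peptides, and the transporter made of TAP1 and TAP2 moves them into the endoplasmic reticulum. Interferons induce all of these genes, and the heavy-chain and B2M promoters are known for interferon response elements, NF-kB sites and the SXY module, where RFX, NF-Y and their partner NLRC5 assemble.

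The 9 genes fell into 6 separate stretches of the genome, because TAP2, PSMB8, PSMB9 and TAP1 lie within 38 kb of each other on chromosome 6. PSMB9 has annotated start sites inside the promoter region of PSMB8 and shares the promoter between it and TAP1, so some peaks count for 2 genes. For H3K4me3, the 12 peak and gene pairs in A549 held 10 distinct peaks, and the 20 pairs in B2B held 16. All genes but B2M lie on chromosome 6. B2M lies on chromosome 15, past the end of the A549 H3K27ac list, which stops on chromosome 13, but within the reach of the other 15 lists. The lists held 8563 to 61225 peaks, and the number of reads behind them was not stated. Fold enrichment is the pileup at a summit over the local background that the peak caller estimated. It is not comparable between lists, and near coding starts its median was 28.4 in the A549 H3K4me3 list and 3.14 in that of B2B. A peak is therefore also given by its percentile, the share of peaks in its own list that it exceeds in fold enrichment.

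The labels were checked against marker genes. Of 5 epithelial markers, 4 had an H3K4me3 peak in each line. Both mesenchymal markers, VIM and CDH2, had H3K4me3 and pol II peaks in each line. Of 7 leukocyte markers, H3K4me3 marked 2 in A549 and 1 in B2B, and pol II marked 2 in A549 and 0 in B2B. The epithelial and mesenchymal counts were the same in both lines, so they cannot tell which list belongs to which line.

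The question was whether the promoters of antigen presentation genes carried the same marks in both lines and whether AP-1 was among them. All 9 genes had pol II and H3K4me3 peaks in both lines. No peak of JunB, Jun or JunD was called at any of the 9 in A549. In B2B, Jun peaks were called at HLA-B and HLA-C and no JunB or JunD peak at any. Med1 was found at all 9 in B2B and at 5 in A549.

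For pol II, 9 of 9 genes had a peak in A549, where 69.6% of all protein-coding genes did, and 9 of 9 in B2B, where 50.9% did. For H3K4me3, 9 of 9 had one in A549 against 73.7% of all genes, and 9 of 9 in B2B against 62.8%. For H3K27ac, 8 of the 8 genes that the list covers had a peak in A549 against 73.5%, and 9 of 9 in B2B against 64.9%. The members were therefore marked as common promoters of both lines.

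**Figure D1:**
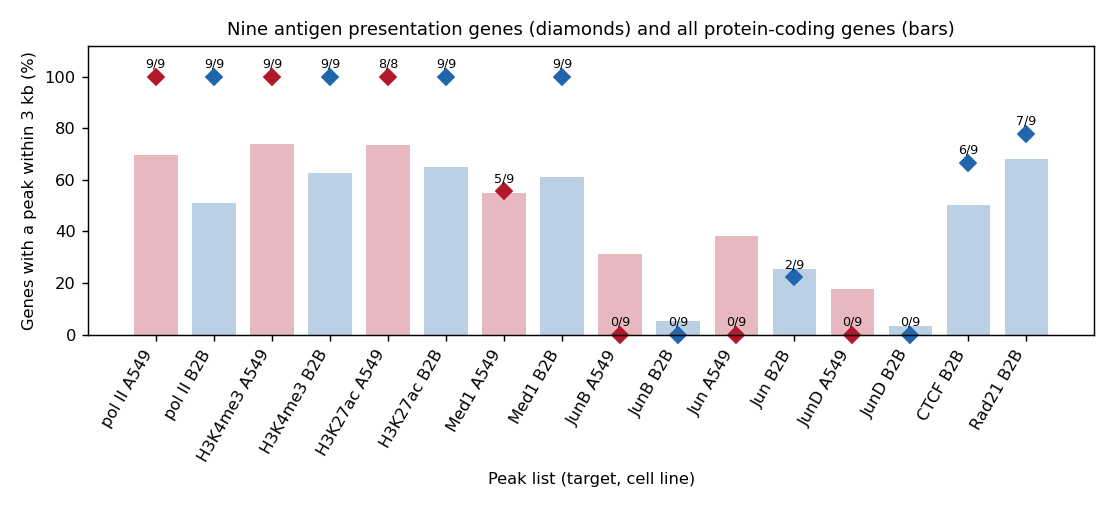
Share of genes with a peak within 3 kb of a start site (y axis, percent) in each of the 16 lists (x axis, red for A549, blue for B2B). Diamonds are the antigen presentation genes, with their count, and bars are all protein-coding genes the list covers. The diamonds sit at 100% for pol II, H3K4me3 and H3K27ac in both lines and at 0 for JunB, Jun and JunD in A549.

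HLA-B (ENSG00000234745.14, chromosome 6, 31353872 to 31367067, minus strand) encodes a classical heavy chain. Its only pol II peak in A549 spanned 31357202 to 31357467 at the main promoter, with a fold enrichment of 4.52 at percentile 18.8. In B2B the promoter peak spanned 31356988 to 31357647, with a fold enrichment of 9.02 at percentile 86.1. A stronger B2B peak of 4869 bp, at 31350558 to 31355426, ran over the last part of the gene and past its end, with a fold enrichment of 13.4 at percentile 93.9. Pol II at HLA-B thus ranked low in A549 and high in B2B, and the A549 peak was lost when the pol II lists were cut to equal length, which left 8 of 9 genes.

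For H3K4me3 the peak at the main promoter of HLA-B was at percentile 58.8 in A549 and 17.6 in B2B, where it spanned 31354847 to 31357824. The strongest B2B peak of that mark, at percentile 46.7, lay at the far upstream start described next. The strongest H3K27ac peak was at 70.1 in A549 and 72.8 in B2B. Med1 had no peak in A549 and peaks of fold enrichment 6.58 and 5.63 in B2B. HLA-B also has an annotated start far upstream of the main promoter, at 31367067. H3K4me3 marked that site in both lines, and in B2B it held a CTCF peak of fold enrichment 15.9 and a Rad21 peak of fold enrichment 25.7, at percentile 97.6 of the Rad21 list.

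HLA-C (ENSG00000204525.18, chromosome 6, 31268749 to 31272130, minus strand) encodes the other classical heavy chain examined. Its promoter had a pol II peak of 1145 bp in A549, at percentile 82.2, and one of 1134 bp in B2B, at percentile 80.4. In B2B a further pol II peak of 2831 bp lay past the end of the gene, at percentile 86.3. H3K27ac was at percentile 93.1 in A549 and 81.7 in B2B, an order that turned when peaks were ranked by −log10 p (88.3 and 97.95). Med1 had no peak in A549, whereas B2B had a peak of 1402 bp with a fold enrichment of 15.5 at percentile 93.4.

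HLA-E (ENSG00000204592.9, chromosome 6, 30489509 to 30494194, plus strand) encodes a conserved heavy chain that presents leader peptides to natural killer cell receptors. Its strongest pol II peaks ranked alike, at percentile 94.2 in A549 and 94.5 in B2B. H3K4me3 was at 98.5 in A549 and 65.6 in B2B. Med1 was at percentile 9.66 in A549 (18.5 by −log10 p), with a peak of 214 bp, and at 92.2 in B2B, with a peak of 1229 bp. HLA-E was the only heavy-chain gene of the 4 with a Med1 peak in A549.

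HLA-F (ENSG00000204642.14, chromosome 6, 29722775 to 29738528, plus strand) encodes the other conserved heavy chain. Its pol II peak was at percentile 66.6 in A549 and 42.3 in B2B, but by −log10 p it was at 65.8 and 71.9, so the order of the lines depended on the measure. H3K27ac was at 77.8 in A549 and 85.9 in B2B. Med1 had no peak in A549 and 1 peak at percentile 40.4 in B2B. HLA-F was the only one of the 9 genes with neither a CTCF nor a Rad21 peak in B2B.

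B2M (ENSG00000166710.23, chromosome 15, 44711358 to 44718851, plus strand) encodes the light chain that every class I molecule needs. It carried the strongest pol II peak of the group in both lines, with a fold enrichment of 106.7 at percentile 99.5 in A549 and 17.9 at percentile 96.9 in B2B. By −log10 p the percentiles were 98.9 and 99.7. H3K4me3 was at 91.04 in A549 and 98.71 in B2B. Med1 was at 75.6 in A549 and 98.4 in B2B, the highest Med1 value of the group in each line. CTCF had 4 peaks at B2M in B2B, more than at any other member.

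TAP1 (ENSG00000168394.13, chromosome 6, 32845209 to 32853816, minus strand) and TAP2 (ENSG00000204267.19, chromosome 6, 32821833 to 32838739, minus strand) encode the peptide transporter. They ran against HLA-B for pol II. TAP1 was at percentile 73.9 in A549 and 21.4 in B2B, and TAP2 at 84.0 and 26.2. These low B2B ranks depended on the measure, since by −log10 p the B2B peaks were at percentile 63.6 for TAP1 and 69.6 for TAP2. TAP2 was the only member with 2 Med1 peaks in A549, the stronger at percentile 61.6, and its B2B peak was at 77.1. The Med1 peak of TAP1 in A549 was a single peak of 166 bp in the promoter shared with PSMB9, at percentile 9.13 and a −log10 q of 4.91.

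PSMB8 (ENSG00000204264.12, chromosome 6, 32840717 to 32844679, minus strand) and PSMB9 (ENSG00000240065.8, chromosome 6, 32844136 to 32859851, plus strand) encode the immunoproteasome subunits. At the PSMB8 promoter, pol II was at percentile 74.4 in A549 and 96.1 in B2B, H3K4me3 at 60.1 and 89.7, and H3K27ac at 65.3 and 99.6. All 3 ranked higher in B2B, and the H3K27ac peak of 1609 bp there had the highest percentile of any member and list. Med1 had no peak at PSMB8 in A549 and a peak of 1287 bp at percentile 84.5 in B2B. At the shared promoter of TAP1 and PSMB9, H3K27ac was at 69.9 in A549 and 71.4 in B2B.

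**Figure D2:**
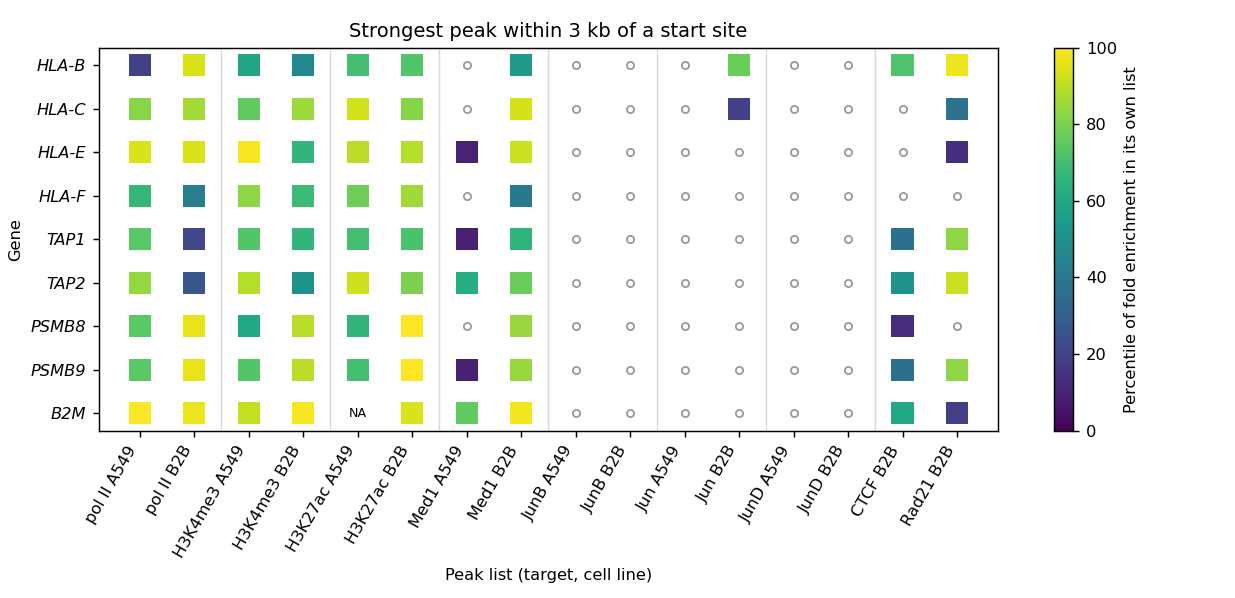
Percentile, within its own list, of the fold enrichment of the strongest peak within 3 kb of a start site (colour, 0 to 100) for each gene (y axis) in each list (x axis). Open circles are genes with no peak, and NA marks B2M in the A549 H3K27ac list, which ends before it. The JunB and JunD columns hold open circles alone, and the A549 Med1 column holds 4 of them.

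Med1 was the mark of active promoters whose count differed between the lines. In A549, 5 of 9 genes had a Med1 peak (HLA-E, TAP1, TAP2, PSMB9 and B2M), where 54.7% of all genes did. In B2B, 9 of 9 had one, where 61.1% did. Against the 8595 covered genes with H3K4me3 peaks in both lines, the shares were 82.1% in A549 and 91.5% in B2B. The A549 count lies near the share of all genes and below 82.1%. The B2B count lies above the share of all genes and near 91.5%. Neither count alone therefore sets the members apart, and TAP1 and PSMB9 share 1 A549 peak. HLA-B, HLA-C, HLA-F and PSMB8 had Med1 in B2B alone, 4 of 9 genes against 10.3% of all genes. The opposite pattern, Med1 in A549 alone, was found at 0 of 9 against 3.86% of all genes. These counts moved with the settings. At 5 kb, A549 Med1 was also called for HLA-F and PSMB8, which left 2 genes with Med1 in B2B alone, and with a −log10 q of at least 5 there were 6, since 3 genes kept a Med1 peak in A549 and all 9 did in B2B. The 2 Med1 lists held 20026 and 20605 peaks in A549 and B2B, of which 1121 and 1554 lay on chromosome 6.

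At each of the 5 genes with Med1 peaks in both lines, the strongest peak had the higher percentile in B2B. In A549 the percentiles were 9.13 for the peak that TAP1 and PSMB9 share, 9.66 for HLA-E, 61.6 for TAP2 and 75.6 for B2M. Med1 fold enrichment near coding starts had a median of 7.31 in the A549 list and 6.73 in the B2B list. Of the 5 distinct A549 peaks, the stronger one at TAP2 and that at B2M exceeded the first of these medians.

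The extent of the marks was then compared as the share of each gene's 3 kb windows that peaks covered. Across genes with H3K4me3 peaks in both lines, coverage was wider in A549 at 90.1% of genes for pol II, 93.1% for H3K4me3 and 85.4% for H3K27ac. The antigen presentation genes went against this in many cases, since coverage was wider in B2B at 5 of 9 for pol II, 6 of 9 for H3K4me3 and 6 of 8 for H3K27ac. The peaks of PSMB9 are all peaks of PSMB8 or TAP1 as well, so these are not counts of separate promoters. Some gaps were small, and for H3K4me3 at TAP1 the shares were 21.77% in A549 and 22.27% in B2B. For Med1 coverage was wider in B2B at 9 of 9. Among genes with H3K4me3 in both lines, Med1 coverage was wider in A549 at 27.98%, and its median was 3.47% in A549 and 5.16% in B2B. The members thus followed the order of these medians for Med1, unlike for the other marks. The share of genes with wider Med1 in B2B was not computed. Med1 covered 0% to 6.37% of the members' windows in A549 and 4.69% to 20.5% in B2B. The widest differences were at B2M for pol II, with 18.9% in A549 and 75.5% in B2B, and at HLA-C, with 13.5% and 39.8%. HLA-E went the other way, with 34.2% in A549 and 11.3% in B2B. Coverage depends on how much was called in a list as well as on the chromatin.

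**Figure D3:**
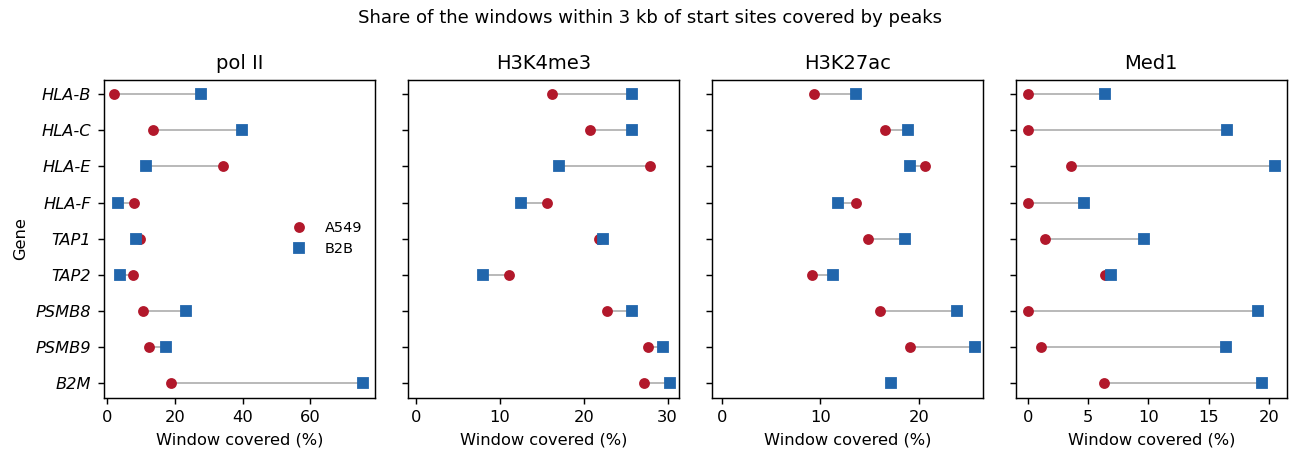
Share of each gene's windows within 3 kb of its start sites that peaks cover (x axis, percent) in A549 (red circles) and B2B (blue squares), for pol II, H3K4me3, H3K27ac and Med1. For Med1 every blue square lies to the right of its red circle, and for pol II the longest gap is at B2M, from 18.9% to 75.5%.

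Pol II was followed beyond the promoters, over the annotated genes and the 5 kb past their ends. Peaks covered 20.3% of B2M in A549 and 91.3% in B2B, and 2.02% of HLA-B in A549 and 20.3% in B2B. For HLA-E the order was reversed, with 54.4% in A549 and 18.4% in B2B. Past the gene end, B2B peaks covered 3314 bp at HLA-B, 2831 bp at HLA-C and 2655 bp at B2M, and A549 peaks covered 0 bp at all 3. Among all genes covered by the A549 list, 0.83% had more than 2 kb covered there in B2B and 5.41% in A549. Peaks covered more of the gene in A549 at 86.2% of the 8972 genes with pol II in both lines. Of the 9 members, 5 (HLA-B, HLA-C, PSMB8, PSMB9 and B2M) had more of the gene covered in B2B, against the order of most genes, and 4 (HLA-E, HLA-F, TAP1 and TAP2) had more in A549. PSMB8 had 14.06% in A549 and 29.65% in B2B, and it overlaps PSMB9, so a B2B peak there counts for both genes. These measures were chosen after the peaks at HLA-B and B2M had been seen.

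**Figure D4:**
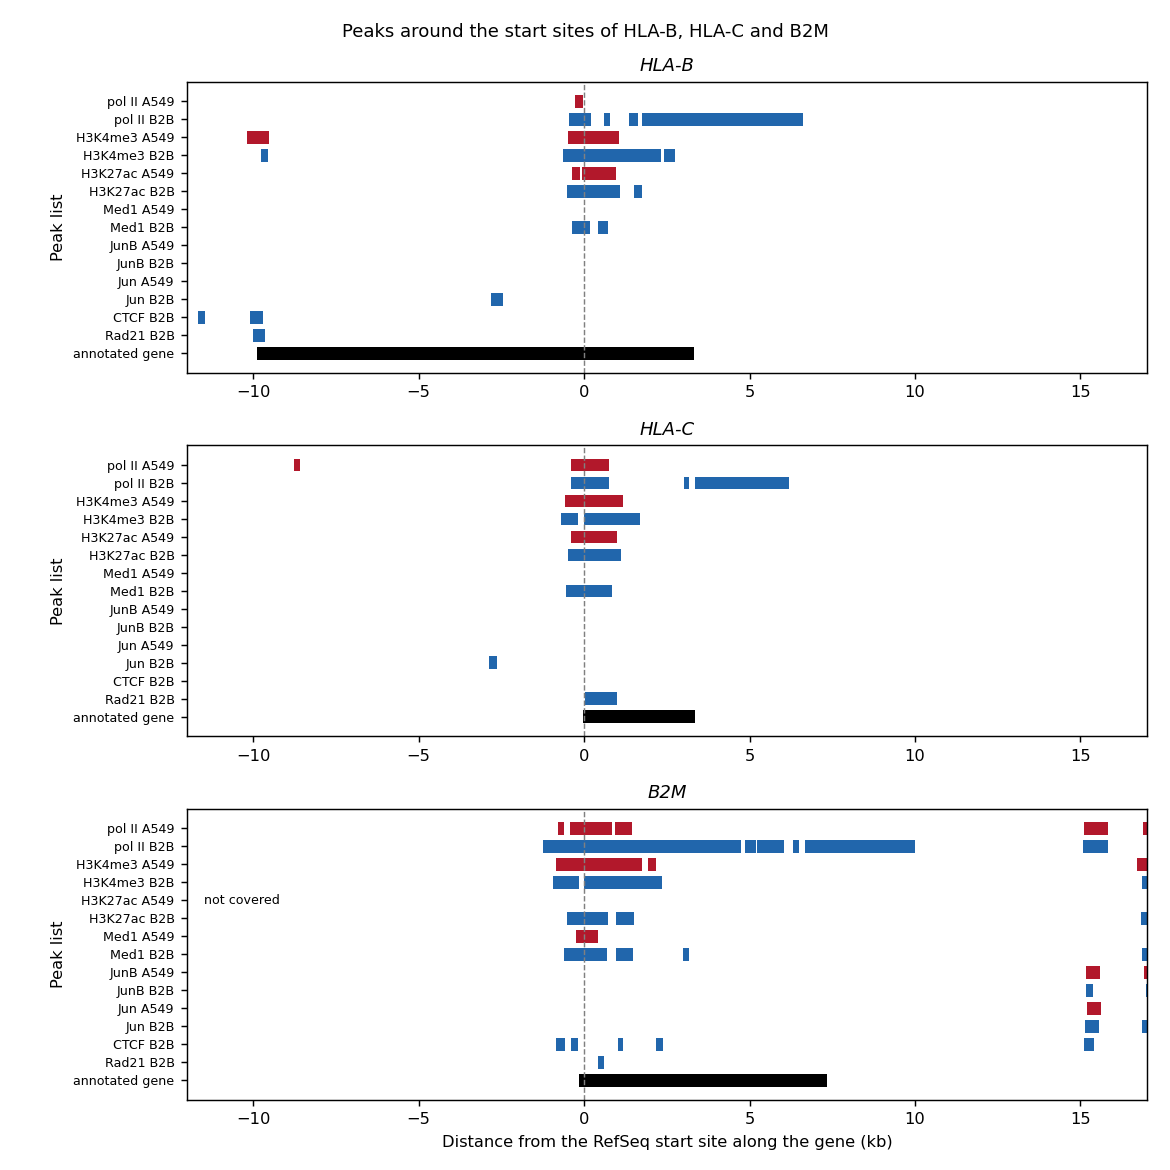
Peaks (bars, red for A549, blue for B2B) by distance from the RefSeq start along the gene (x axis, kb) at HLA-B, HLA-C and B2M, with the annotated gene in black and 1 row for each list, JunD left out. The B2B pol II bars run past the 3' ends of all 3 genes, and the only Jun bars within 3 kb of the HLA-B and HLA-C starts are those of B2B.

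AP-1 was the factor the study asked about. In A549, JunB had a peak at 0 of 9 genes against 31.1% of all protein-coding genes, Jun at 0 of 9 against 38.2%, and JunD at 0 of 9 against 17.8%. In B2B, JunB was at 0 of 9 against 5.28%, JunD at 0 of 9 against 3.22%, and Jun at 2 of 9 against 25.4%. Peaks in A549 alone, at 0 of 9 members, were found at 26.7% of all genes for JunB, 19.3% for Jun and 16.2% for JunD. Jun in B2B alone was found at 6.50% of all genes and at 2 members. The B2B Jun count of 2 of 9 lies near the share of all genes and is no result about the members. The A549 counts stayed at 0 at 5 kb. The other settings tried only remove peaks or start sites, so they could not change a count of 0.

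Since all members had H3K4me3 in both lines, they were also set beside the 12185 genes with that pattern. This set, used for Med1 and for coverage as well, was chosen after the members' peaks had been seen. Of these, 44.2% had a JunB peak in A549, 53.4% a Jun peak and 26.7% a JunD peak, and 61.3% had at least 1 of the 3. The B2B share for Jun was 33.5%. The 9 members form 6 stretches and are not 9 independent promoters. The expectation of finding none in so few stretches was not tested.

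The 2 Jun peaks of B2B lay upstream of the main promoters and not at them. At HLA-B the peak spanned 31359640 to 31359984, 2452 bp from the nearest start site, inside the annotated gene, between its start clusters, and outside its exons. It had a fold enrichment of 15.6 at percentile 77.0 of the Jun list. At HLA-C the peak spanned 31274736 to 31274961, 2606 bp upstream between genes, with a fold enrichment of 5.60 at percentile 18.8. Neither overlapped a peak of any of the other 15 lists, JunB and JunD of B2B included. With a distance of 1 kb the count of members with B2B Jun was 0, and with the outermost start of each gene alone it was 1.

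The sequences under these 2 peaks were compared, because HLA-B and HLA-C are copies of an ancestral gene. The HLA-C peak aligned over its whole length of 226 bp to the HLA-B peak, with 217 identical bases, 9 differences and no gap (96.0% identity). The stretches that follow hold 150 aligned bases of each on the plus strand of hg38, chr6:31274783-31274932 for HLA-C and chr6:31359778-31359927 for HLA-B, with the 5 bases that differ in capitals.
HLA-C: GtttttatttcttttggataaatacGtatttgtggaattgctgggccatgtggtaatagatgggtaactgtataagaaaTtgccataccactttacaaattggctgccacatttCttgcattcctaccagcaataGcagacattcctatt
HLA-B: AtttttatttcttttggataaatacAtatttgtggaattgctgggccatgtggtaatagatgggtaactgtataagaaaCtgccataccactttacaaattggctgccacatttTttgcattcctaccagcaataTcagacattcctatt
Neither peak held the AP-1 motif, TGACTCA or its reverse complement TGAGTCA, anywhere in its length. That motif lies within 50 bp of the summit of 39.8% of all B2B Jun peaks. Of the words of 50 bases in the 2 peaks, 1.35% at HLA-B and 2.26% at HLA-C occurred elsewhere in the genome. With words of 36 bases the shares were 9.35% and 12.57%. These shares count exact matches only, and the placement of reads between the copies was not tested. The 2 peaks are thus a pair of copies of 1 sequence, and the B2B Jun count of 2 members rests on them.

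Beyond 3 kb, Jun-family peaks were sparse around the members. The nearest peak of any of the 3 proteins in A549 lay at a median of 38.3 kb from the start sites of the members (10.9 to 129.6 kb), against 0.271 kb for genes with H3K4me3 in both lines and 5.95 kb for all genes. In B2B the medians were 27.6 kb for the members (2.45 to 47.99 kb), 8.49 kb for genes with H3K4me3 in both lines and 14.985 kb for all genes. TAP1, TAP2, PSMB8 and PSMB9 had no A549 peak of the family within 50 kb, and their nearest Jun peak in A549 spanned 32968351 to 32968514, at percentile 6.93. In B2B their nearest Jun peak spanned 32886726 to 32887023, between 30.6 kb from PSMB9 and 47.99 kb from TAP2.

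**Figure D5:**
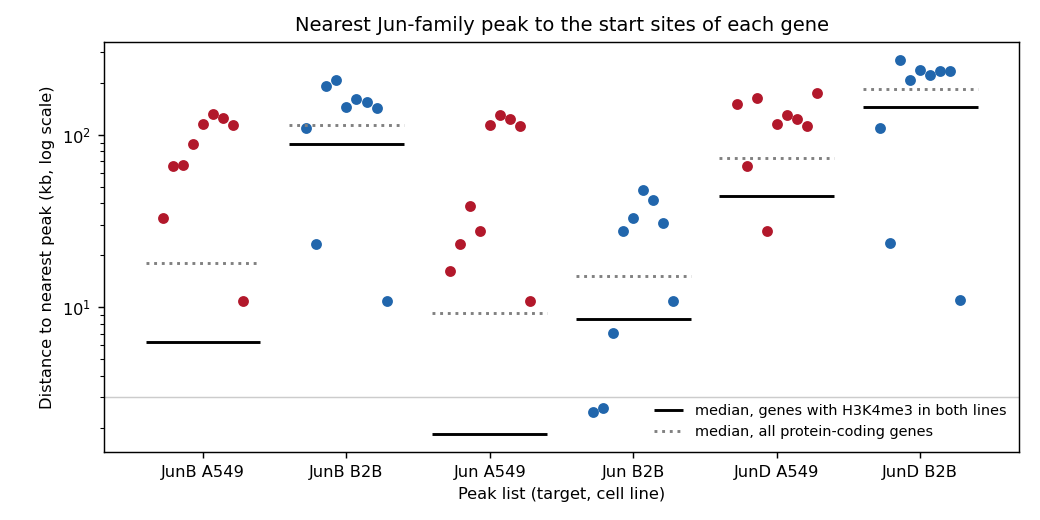
Distance from the start sites of each gene to the nearest peak of JunB, Jun or JunD (y axis, kb, log scale) in each line (x axis, red for A549, blue for B2B). Points are the 9 genes in the order HLA-B, HLA-C, HLA-E, HLA-F, TAP1, TAP2, PSMB8, PSMB9, B2M, lines are medians over other genes, and the thin grey line marks 3 kb. In A549 every point of JunB and Jun lies above the median of genes with H3K4me3 in both lines.

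Within 50 kb of the members there were 15 distinct Jun-family regions. Both lines called 7 of them, B2B alone called 7, each with Jun only, and A549 alone called 1. The same shares were not computed around other genes. The Jun lists held 35602 peaks in A549 and 45047 in B2B, of which 1882 and 2959 lay on chromosome 6. In the stretch of chromosome 6 that holds the MHC, the Jun peaks numbered 84 and 86. The AP-1 motif lay within 50 bp of the strongest summit in 3 of the 15, and all 3 were called in both lines. Among all summits of the Jun-family lists, the share with the motif ran from 34.2% (A549 JunD) to 53.6% (B2B JunB). The region nearest to B2M spanned chr15:44726666-44727137, 10.8 kb from its last annotated start and past its end. It was called for JunB and Jun in both lines and for JunD in B2B, with Jun fold enrichments of 21.5 in A549 and 25.2 in B2B. Its nearest coding start was that of TRIM69, at 1.85 kb. Pol II lay there in both lines, H3K4me3 in neither. The region 23.2 kb from HLA-C spanned chr6:31245987-31246454 and had Jun in both lines and JunB and JunD in B2B. The region 38.3 kb from HLA-E spanned chr6:30527860-30528246 and had Jun in both lines. The summit of each with 50 bases on either side follows, on the plus strand of hg38 with the motif in capitals, to show the sites with the motif beside the pair without it.
B2M, chr15:44726760-44726860: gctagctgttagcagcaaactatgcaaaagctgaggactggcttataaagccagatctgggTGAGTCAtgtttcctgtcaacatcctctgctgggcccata
HLA-C, chr6:31246164-31246264: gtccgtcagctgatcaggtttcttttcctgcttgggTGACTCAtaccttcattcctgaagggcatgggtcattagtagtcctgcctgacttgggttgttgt
HLA-E, chr6:30527997-30528097: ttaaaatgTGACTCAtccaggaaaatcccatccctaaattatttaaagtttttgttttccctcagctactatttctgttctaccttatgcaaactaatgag

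The promoters themselves were searched for motifs. RefSeq promoters of GRCh38.p14 (250 bases before to 50 after a start) were found for 8 of the 9 genes, all but HLA-E, and were read on both strands. The AP-1 motif was in 0 of 8, against 4.95% of 35116 promoters, and the CRE motif TGACGTCA also in 0 of 8, against 1.85%. No match says only that these letters are not in these windows, and with so low a background share 0 of 8 is no result about the members. In the wider 3 kb windows 6 of the 9 genes held the AP-1 motif, all but PSMB8, PSMB9 and B2M. The nearest one lay 21 bp from an annotated start of HLA-B and 63 bp from one of HLA-C. Of these 13 motifs, counted by gene, 1 lay under an A549 H3K4me3 peak, at TAP2. The interferon response element core, GAAA and GAAA with any 2 bases between them, was in 5 of 8 (HLA-F, TAP1, TAP2, PSMB8 and B2M), against 3.57% of all promoters. HLA-B and HLA-C held a shorter form, GAANNGAAA, which is in 7.66% of all promoters and was added after their sequences had been read. The 8 genes have 10 promoters in the table, of which 5 held the full core. The inverted CCAAT box ATTGG, the letters NF-Y reads, was in 6 of the 10 promoters against 34.6%, and those of TAP1 and PSMB9 hold the same copy of it. The NF-kB consensus was in 4 of the 10 (HLA-B, HLA-C, TAP1 and B2M) against 11.3%.

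The interferon cores are printed 5′ to 3′ in the direction of each gene, 30 bases long with the core in capitals, to show how alike the element is among the 7 genes that hold either form. PSMB9 held neither. Positions are counted from the RefSeq start at 0.
HLA-B, chr6:31357316-31357345, core from -155: actcccctgagTTTCACTTCttctcccaac
HLA-C, chr6:31272225-31272254, core from -151: actcccctgagTTTCACTTCtcccaacctg
HLA-F, chr6:29723268-29723297, core from -156: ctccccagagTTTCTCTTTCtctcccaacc
B2M, chr15:44711363-44711392, core from -144: gagactctaaGAAAAGGAAActgaaaacgg
TAP2, chr6:32838778-32838807, core from -58: ctggggaagcGAAAGCGAAAgctgcccgag
PSMB8, chr6:32844032-32844061, core from -4: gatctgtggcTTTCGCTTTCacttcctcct
The 3 heavy-chain cores lie between -156 and -151 in the same orientation. B2M has 2 overlapping cores, which begin at -144 and -138, and only the first is in capitals above. In the promoter of TAP1 next to PSMB9, 2 overlapping cores begin at -134 and -128. The bases before the first annotated TAP1 exon, chr6:32853817-32853954 on the minus strand, are printed with the cores and an inverted CCAAT box in capitals.
TAP1: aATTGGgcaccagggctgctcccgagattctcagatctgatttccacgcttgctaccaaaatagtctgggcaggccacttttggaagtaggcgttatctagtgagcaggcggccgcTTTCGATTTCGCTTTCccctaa
Peaks of pol II, H3K4me3 and, where the list reaches, H3K27ac overlapped each promoter shown here in both lines, and no Jun-family peak did.

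In B2B, CTCF had a peak at 6 of 9 genes against 50.1% of all genes, and Rad21 at 7 of 9 against 67.9%. Both were found at HLA-B, TAP1, TAP2, PSMB9 and B2M. HLA-C and HLA-E had Rad21 without CTCF, at percentiles 38.1 and 13.7 by fold enrichment and 74.0 and 43.5 by −log10 p. PSMB8 had CTCF without Rad21, at percentile 12.7 by fold enrichment and 40.2 by −log10 p. Rad21 was at percentile 97.6 at HLA-B, 91.7 at TAP2 and 83.1 at the promoter of TAP1 and PSMB9. By −log10 p these were 93.1, 96.7 and 93.2, so HLA-B was first by fold enrichment alone.

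The members' patterns of presence over the lists were then set against all genes covered by all 16 lists. TAP1, TAP2 and PSMB9 shared 1 pattern, and for each of them it was found at 594 other genes, 4.65% of the 12763 compared. The pattern of HLA-E was found at 552 (4.33%). The patterns of HLA-C and HLA-F were each found at 10 (0.08%), that of PSMB8 at 16 (0.13%) and that of HLA-B at 54 (0.42%). Over the 15 lists that reach B2M, its pattern was found at 655 other genes, 4.75% of the 13802 compared, and TAP1, TAP2 and PSMB9 also had it. For each member, the gene on another chromosome with the most similar percentiles was named by Pearson's r across the lists, as a description. Lists without a peak within 3 kb entered at the bottom of the scale, so shared absences count towards r. Each r is also the highest among 9853 genes compared, or 11345 for B2M, so a high value is no sign of a special likeness. These were TMCC2 for HLA-B (r = 0.922), ZMYM1 for HLA-C (0.986), RAB28 for HLA-E (0.986), TMA7 for HLA-F (0.988), NECAP2 for TAP1 (0.991), ZNF212 for TAP2 (0.992), MED21 for PSMB8 (0.980) and ZNF462 for PSMB9 (0.994) over 16 lists, and MED18 for B2M (0.991) over 15. The lists share 2 cell lines and their points are not independent. HLA-B had the least close neighbour of the 9.

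Other genes of the pathway were taken from fixed lists. Their counts of Jun-family peaks are read against genes with H3K4me3 in both lines, of which 44.2% had JunB, 53.4% Jun and 26.7% JunD in A549 and 33.5% had Jun in B2B, and no difference between lists was tested. Among 7 peptide-loading genes, all had pol II and H3K4me3 in both lines. In A549, JunB was at 3 of them (CANX, ERAP1 and ERAP2) and Jun at 4 (those and CALR), close to these shares, and in B2B Jun was at ERAP1 and ERAP2. JunD was at CANX in A549 and at ERAP2 in B2B. ERAP1 and ERAP2 encode the aminopeptidases that trim peptides, and CANX and CALR encode chaperones that fold the heavy chain. The remaining immunoproteasome subunit PSMB10 and the activator genes PSME1 and PSME2 had no JunB or Jun peak in either line, and JunD was at PSME2 in A549. Of the constitutive subunits, PSMB5 and PSMB7 had Jun in A549, where PSMB7 also had JunB. None of PSMB5, PSMB6 and PSMB7 had Jun in B2B.

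Of 12 interferon signalling genes, A549 had JunB at 7, Jun at 7 and JunD at 4, and B2B had them at 2, 6 and 3. The A549 counts lie near the shares just given. In B2B, 5.28% of all genes had JunB and 3.22% had JunD, and their shares among genes with H3K4me3 in both lines were not computed. IRF1, the interferon-induced activator of class I genes, had all 3 proteins in both lines. Of 5 NF-kB subunit genes, all had Jun in A549, 3 had JunB (NFKB2, RELA and REL) and 4 had JunD (those and RELB). In B2B, 2 (NFKB1 and NFKB2) had Jun and none had JunB or JunD. Of 10 genes for transactivators of the class I and class II promoters, A549 had JunB at 3 (NFYC, CREB1 and ATF1) and Jun at 2 (CREB1 and ATF1), both below those shares. A549 JunD was at 3 (NFYA, CREB1 and ATF1), near its share, and B2B had Jun at 3 (NLRC5, NFYC and CREB1). NLRC5 is the main transactivator of the class I genes. Among 7 other class I and class I-like genes, JunB and Jun were at MICA in A549, and Jun was at MICA and MICB in B2B. Of 11 class II genes, pol II was at 1 in each line, HLA-DMA, which had JunB, Jun and JunD in A549 and Jun in B2B. HLA-DMB had no pol II peak in either line. Peaks were assigned by any annotated start. Whether those at HLA-DMA lie at its own main promoter or at that of a neighbouring gene was not tested, so they are no sign of class II activity.

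Class I genes resemble each other, so the share of 50-base words that recur elsewhere in hg38 was computed for each window. It was 2.27% for HLA-B, 4.27% for HLA-C, 9.22% for HLA-E, 7.77% for HLA-F, and between 0.66% and 1.76% for the other 5 genes. Reads with differences from the reference, which are known to be common in classical HLA genes, may be placed less often, and their part in the values of HLA-B and HLA-C was not tested.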

How the data were processed

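ChIP-seq was described for 36 samples in 18 groups of 2 replicates, 4 of them input chromatin. Per the study's methods and the submitters' processing notes, the authors used Bowtie2 2.4.4 for alignment to hg38 and in-house code to drop duplicates, and after merging the replicates they scaled them to CPM with SAMtools 1.13 and ran MACS2 2.2.7.1. The caller's options and control were not given in the sources used here. Each peak carried a deposited score, a whole number close to 10 times its −log10 q, which was not used. The fold enrichment, a ratio, and the −log10 of the p-value and of the q-value were deposited by the authors and used to rank or filter peaks within a list. The lowest −log10 q was about 2. Of the 16 lists, 4 ended early, and genes past an end were left out for that list.

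Only peaks of the primary chromosomes were kept and matched to GENCODE release 44 in Python 3.11.15 with NumPy 2.4.6. Merged regions needed an overlap of 1 bp. The genome was indexed by samtools 1.23.1 and its bases fetched through pysam 0.24.0. Biopython 1.88 aligned the 2 Jun peaks, and Matplotlib 3.10.9 made the figures. On simulated data 6 of 6 counts of intervals and words equalled the known values, which for 3 of them came from bedtools 2.31.1. Members, lists and motifs were chosen with earlier results of these data known. All 9 members are named, with the most similar gene of each, and genes of other lists are named where 5 or fewer fell in a class.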

Additional observations from a re-analysis of the deposited data

How the results depend on the processing

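No paired analysis was possible because the authors merged the replicates before calling peaks, and no replicate could be left out for the same reason. Counts of members per list stayed within 1.5 times under 107 of 110 alternatives. The exceptions were A549 Med1, with 3 of 9 genes at a −log10 q of at least 5, and B2B Jun, with 0 genes at 1 kb and 1 with the outermost start alone. The A549 Med1 count was 7 at 5 kb, and the A549 pol II count was 8 with lists of equal length or the outermost start alone. All Jun-family counts that were 0 stayed at 0 at 5 kb. The other settings could not change a count of 0, so the 107 include alternatives whose outcome was fixed.

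Counts of all genes per list stayed within 1.5 times in 100 of 110 alternatives. Lists of equal length gave 8210 genes for B2B H3K27ac and 1879 for A549 JunB. At 1 kb there were 605 genes for B2B JunB, 3299 for B2B Jun and 350 for B2B JunD. The outermost start alone gave 369, 2778 and 151, and starts of protein-coding transcripts alone gave 683 for B2B JunB and 373 for B2B JunD.

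Regions at the members called in both lines, in A549 alone and in B2B alone numbered 9, 3 and 9 for pol II, 9, 0 and 1 for H3K4me3, 8, 1 and 3 for H3K27ac, and 4, 0 and 7 for Med1. Near all protein-coding genes the shares of regions, in the same order, were 34.91%, 57.35% and 7.74% for pol II. They were 58.82%, 34.24% and 6.94% for H3K4me3, and 53.54%, 30.79% and 15.66% for H3K27ac. For Med1 they were 50.66%, 14.97% and 34.38%. Under 50% reciprocal overlap they were 4, 11 and 15 for pol II, while for H3K4me3 3 were in A549 alone and 9 in B2B alone, for H3K27ac 2 were in A549 alone, and for Med1 2 were in both and 3 in A549 alone. Lists of equal length left 0 pol II regions in A549 alone, against 34.70% of regions near all genes. A −log10 q of at least 5 left 0 H3K4me3 regions in B2B alone, against 6.04%. Words of 36 bases raised the recurring shares to 8.57% for HLA-B, 11.02% for HLA-C, 19.6% for HLA-E, 11.6% for HLA-F, 3.51% for TAP1, 3.23% for TAP2, 3.10% for PSMB8, 2.83% for PSMB9 and 4.28% for B2M. Percentiles moved under 155 of 164 alternatives, by a median of 4.37 points when −log10 p replaced fold enrichment and by 5.66 when only peaks near coding starts were ranked, with a largest rise of 43.4 points for TAP2 pol II in B2B by −log10 p and a largest shift downward of -21.3 points for HLA-B H3K4me3 in A549 among peaks near coding starts. Of 31 pairs of a gene and a mark ranked in both lines, the order of the lines turned in 6 by −log10 p and in 5 among peaks near coding starts. These were HLA-C and HLA-E H3K27ac, HLA-F pol II and H3K4me3, TAP1 H3K4me3 and B2M pol II by −log10 p. Among peaks near coding starts they were HLA-B H3K4me3, with 37.5 in A549 and 53.1 in B2B, HLA-E H3K27ac, HLA-F pol II and H3K4me3, and TAP1 H3K4me3. The cause of these shifts was not tested. Depth was not stated, so that a missing peak means that none was called, not that the protein is absent.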
